A study of Mus musculus with 25 samples.

Results

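The comparison set CD11b+ Ly6C Low cells sorted from mouse kidneys 9 days after ischemia-reperfusion against cells labelled as sorted through a Ly6C Low gate after sham surgery. Members were chosen by their source labels: 3 arrays labelled 9 day Low (replicates 8, 9 and 13) and 2 arrays labelled sham Low (replicates 1 and 2), 5 of the 25 arrays of the series. All animals were C57BL/6 males aged 8 to 10 weeks. In the 9 day group both renal pedicles were clamped for 28 min and the kidneys were reperfused for 9 days. Sham animals had the same operation without clamping, and the labels of the 2 sham Low arrays give no time after surgery. Every animal of both groups received saline and buprenorphine at 0.05 mg/kg. Cells were sorted by flow cytometry on CD11b (Itgam) and Ly6C into lysis buffer. The RNA was amplified as whole transcripts with a kit for very small inputs and hybridised to Affymetrix arrays. The comparison asks how the gene expression of the Ly6C Low myeloid fraction differs between a kidney in late repair and an uninjured one. Nothing in the labels says outright that each array is a separate animal, so the p-values measure the spread between these arrays.

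Ly6C is a surface protein of blood monocytes. Classical monocytes carry it at a high level and lose it as they become nonclassical monocytes or mature into macrophages, so a Ly6C Low gate in kidney is generally taken to hold resident macrophages, nonclassical monocytes and late monocyte descendants. After ischemic injury, Ly6C-high monocytes enter first, together with neutrophils, and clear debris. Macrophages of the later repair phase express arginase, scavenger receptors and growth factors. The tubule around them is made of epithelial segments with very abundant transcripts of their own, such as uromodulin in the thick ascending limb.

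The label was checked against the RNA of the sort markers before any comparison, and the Ly6c reading ran against it on the sham arrays. The sort was on surface protein, so an RNA reading does not show which gate an array came from. The single probe set that stands for both Ly6c1 and Ly6c2 read 5.25, 4.32 and 4.76 (log2) on the 9 day Low arrays, in the order replicates 8, 9 and 13, which is the order used throughout. It was called present (P) on 1 of them. On the arrays labelled sham Low it read 12.57 and 10.37, in the order replicates 1 and 2, and was called P on both. For comparison, the 4 h High arrays read 12.42 to 12.90 and the sham Intermediate arrays 11.66 and 10.26. The sham High arrays read 2.83 and 12.03, and the sham 58 High arrays 12.94, 11.40 and 7.75. The arrays labelled 9 day Intermediate, used in a comparison of gates at the end, did not all read as labelled at this probe set either. They read 5.27, 10.92 and 5.01 for replicates 8, 9 and 13, and the probe set was called absent on replicates 8 and 13. Those 2 arrays had 3.29% and 4.67% of all probe sets called P, against 25.5% on replicate 9. Neither sham Low array lacked this signal, so no comparison could be made without such arrays. Itgam was called P on all 5 arrays, at 4.94, 4.40 and 2.69 at 9 days and 5.25 and 2.90 in sham. These are low levels: 2.69 and 2.90 lie below the medians of their own arrays, 2.97 and 3.04. The macrophage genes Csf1r, Adgre1, Cx3cr1 and the monocyte chemokine receptor Ccr2 were also called P on all 5.

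**Figure D1:**
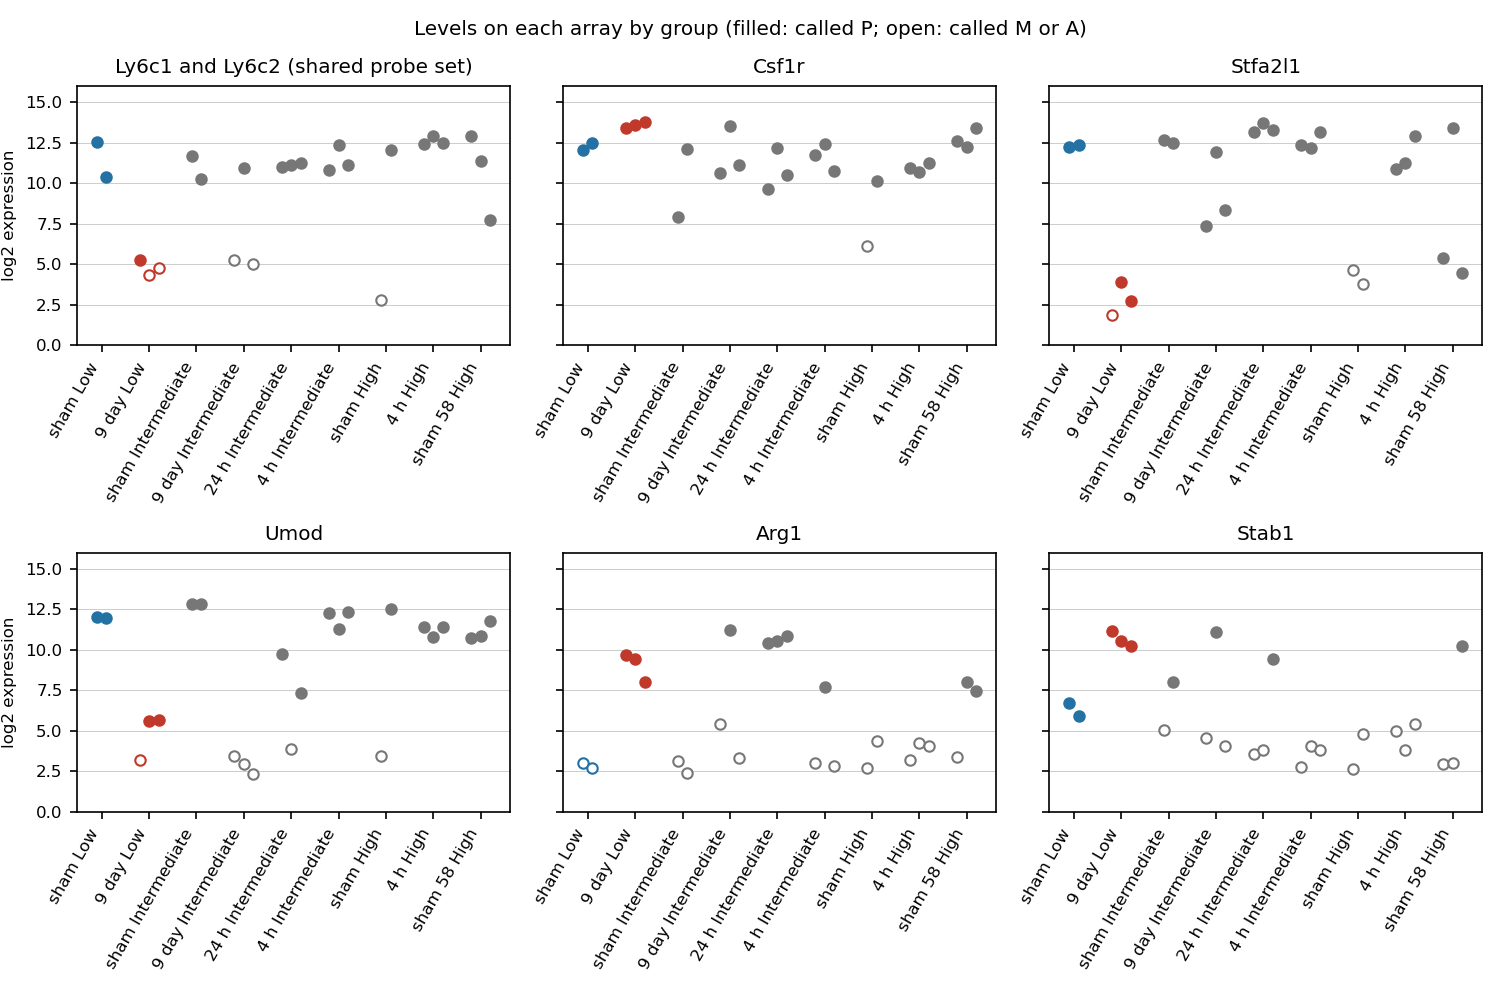
Log2 expression (vertical axis) on each sorted array, by group (horizontal axis); each point is an array, filled where the probe set was called P and open where it was called M or A. The Ly6c probe set is near 5 on the 9 day Low arrays and above 10 on the arrays labelled sham Low, and Umod and Stfa2l1 are low and Stab1 high on the 9 day Low arrays.

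The share of probe sets called P was 25.3%, 32.8% and 37.3% on the 9 day Low arrays and 40.0% and 27.4% on the sham arrays, so the groups overlapped. The 3' to 5' signal ratio of Gapdh, which rises as RNA is degraded or shortened, was 10.7, 7.78 and 3.00 at 9 days and 1.85 and 2.82 in sham. Those groups did not overlap. The same ratio for actin was 4.06, 3.33 and 2.00 at 9 days and 1.58 and 1.78 in sham. The part of RNA quality in the results below was not tested. Across the genes tested, arrays correlated at 0.676 to 0.764 within the 9 day group, at 0.750 between the sham arrays and at 0.536 to 0.690 between groups.

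Of 18194 genes with a probe set of their own, 8179 were tested because they were called P on at least 2 arrays of either group. By limma with Benjamini-Hochberg adjustment, 96 genes (1.17% of those tested) had an adjusted p under 0.05. Of these, 83 were lower at 9 days (1.01%) and 13 were higher (0.159%). All 96 lie just inside the threshold, at adjusted p 0.0462 to 0.0489, the next gene is at 0.0516, and 153 further genes lie between 0.05 and 0.1. Without any 1 of the 5 arrays no gene was called, by limma with adjustment, while 774 to 1184 had an unadjusted p under 0.05. The call of each gene below therefore needs all 5 arrays, and each size is given with its values. The called differences were large, at -4.59 to -9.46 (log2) for lower and 4.80 to 7.89 for higher genes. With all 5 arrays 1182 genes had an unadjusted p under 0.05, 749 of them lower and 433 higher. The 9 day and sham arrays did not overlap for 1514 genes lower at 9 days (18.5%) and 1108 genes higher (13.5%), and the median difference over all tested genes was -0.08.

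Transcripts of the kidney tubule made up the largest named group among the lower genes. Of the 83 lower genes, 62 are in none of the 34 lists, 11 belong to the nephron lists and 5 to the neutrophil list. Altogether 19 of the 83 belong to the 12 lists of cell types other than monocytes, macrophages and dendritic cells. Of the 13 higher genes 0 do. The 12 lists hold 87 of the 8179 tested genes, so 0 of 13 is near that share. In sorted bulk cells, fewer cells of a type and less RNA per cell cannot be told apart. For the distal nephron and collecting duct list, 17 of 18 genes are on the array, and all 17 were below 0. Their median was -5.31, and that of every gene on the array was 0.01. The number of these 17 called P was 0, 5 and 4 on the 9 day arrays and 16 and 14 on the sham arrays. In total 14 passed the detection filter, 12 of them only through the sham side, and 8 were called lower (1.01% over all tested genes).

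Promoters are shown for 3 called genes of the tubule, because the hepatocyte nuclear factor 1 proteins (HNF1) are well-known regulators of tubule genes. Each is the window of 250 bases before to 50 bases after the gene's start, 5′ to 3′ on the gene's strand, from RefSeq on GRCm38.p6. Capitals mark the match to the HNF1 motif, the runs GTTAAT and ATTAAC with any 1 base between them, with at most 2 mismatches. The motif reads the same on both strands, so a scan of 1 strand covers both. The windows of Umod (chr7:119479213-119479512, minus strand), Slc12a1 (chr2:125152350-125152649, plus strand) and G6pc (chr11:101367466-101367765, plus strand) read as follows.
Umod: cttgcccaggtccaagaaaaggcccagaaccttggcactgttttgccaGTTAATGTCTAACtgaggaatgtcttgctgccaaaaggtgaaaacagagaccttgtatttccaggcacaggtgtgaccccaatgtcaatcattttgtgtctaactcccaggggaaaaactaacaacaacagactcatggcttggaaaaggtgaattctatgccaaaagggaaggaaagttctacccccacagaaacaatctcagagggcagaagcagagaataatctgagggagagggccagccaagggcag
Slc12a1: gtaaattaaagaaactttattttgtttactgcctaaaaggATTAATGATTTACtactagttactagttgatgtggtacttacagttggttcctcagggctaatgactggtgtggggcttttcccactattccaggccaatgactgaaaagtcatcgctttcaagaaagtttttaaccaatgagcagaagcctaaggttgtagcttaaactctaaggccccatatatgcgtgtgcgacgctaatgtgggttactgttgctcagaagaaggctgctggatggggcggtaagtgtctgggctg
G6pc: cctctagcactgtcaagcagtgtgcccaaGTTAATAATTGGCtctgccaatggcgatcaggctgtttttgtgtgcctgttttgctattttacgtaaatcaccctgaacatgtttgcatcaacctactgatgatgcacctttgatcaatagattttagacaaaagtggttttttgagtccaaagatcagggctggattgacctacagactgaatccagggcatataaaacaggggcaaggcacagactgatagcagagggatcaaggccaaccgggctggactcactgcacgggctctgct
The 3 genes were taken from the 7 genes called lower that hold a match, and all 3 matches carry 2 mismatches. Tmed6, also among the 7, has 1 mismatch and is not shown. A match with at most 2 mismatches is present in 446 of 32851 RefSeq promoter windows (1.36%). It is present in 77 of the 6684 tested genes that have a window (1.15%). Among the genes called lower it is present in 7 of 62 (11.3%), and among those called higher in 0 of 10. It is present in 3 of 13 distal nephron genes, 2 of 18 proximal tubule genes, 0 of 18 neutrophil genes and 0 of 22 tissue macrophage genes. A match of letters is not evidence of binding, and the motif was chosen with the called genes known. Whether these genes share a regulator here was not tested.

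Egf, the precursor of epidermal growth factor made in the distal convoluted tubule, read 3.13, 4.09 and 2.81 at 9 days and 11.36 and 11.98 in sham. It was called P on both sham arrays and on no 9 day array. The difference was -8.32 ± 0.75 (SE), at least 321-fold lower (adjusted p = 0.0462). The folds written "at least" apply where no array of the dim group was called P. They set the bright group's mean against the dim group's mean of, on each array, the higher of its own value and the lowest value called P. For the genes given so in this text the result equals the plain fold between the group means. Umod, the uromodulin gene whose promoter is shown above, read 3.19, 5.63 and 5.65 at 9 days and 12.00 and 11.98 in sham. Both sham values exceed every 9 day value, and Umod, called P on 2 of the 9 day arrays, was 144-fold lower there (-7.17 ± 0.99, adjusted p = 0.0472). A second Umod probe set differed by -6.57. Slc12a1 encodes the sodium-potassium-chloride transporter of the thick ascending limb, the target of loop diuretics. Its values were 2.79, 2.47 and 1.92 at 9 days against 9.26 and 10.27 in sham, at least 165-fold lower (adjusted p = 0.0462). Calb1, the cytosolic calcium buffer calbindin of the distal tubule, read 3.27, 2.78 and 2.28 against 9.83 and 10.49, at least 167-fold lower. Hsd11b2, which inactivates glucocorticoid in aldosterone-sensitive cells, read 3.60, 3.95 and 2.85 against 9.98 and 11.00, 130-fold lower, with 1 of the 3 9 day arrays called P. The thiazide-sensitive transporter gene Slc12a3 fell by 6.02 and the calcium-binding Pvalb by 5.73, and Tmem52b was the eighth called member. Aqp2, the water channel of collecting duct principal cells, was the smallest tested difference of the list at -1.37 (adjusted p = 0.449).

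For the proximal tubule list, 22 of the 23 genes on the array were below 0, with a median of -4.29 over all 23. The number called P was 5, 10 and 10 on the 9 day arrays and 22 and 22 on the sham arrays. Of 22 tested genes 3 were called lower (1.01% over all tested genes), and 14 of the 22 passed the filter only through the sham side. Slc5a12, a sodium-coupled lactate transporter of the brush border, read 1.84, 1.70 and 2.08 at 9 days and 7.69 and 7.58 in sham, at least 54.2-fold lower (adjusted p = 0.0462). Cyp2e1, a cytochrome P450, read 2.16, 3.28 and 2.65 against 7.86 and 8.63, at least 46.9-fold lower. The water channel gene Aqp1 read 2.62, 2.27 and 2.59 against 8.54 and 7.26, at least 42.5-fold lower. Miox, which opens the ring of myo-inositol, differed by -6.70 and was not called (adjusted p = 0.0541). The most abundant secreted products of this segment were still called P at 9 days. Gpx3, the plasma glutathione peroxidase, read 10.39, 11.60 and 10.71 against 13.77 and 14.22, and Kap read 8.30, 10.46 and 9.55 against 12.69 and 11.97. Their differences of -3.10 and -2.89 were not called. Without sham replicate 1 the list median over tested genes was -4.41, and without sham replicate 2 it was -4.04. For the distal list those medians were -5.87 and -5.36.

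**Figure D2:**
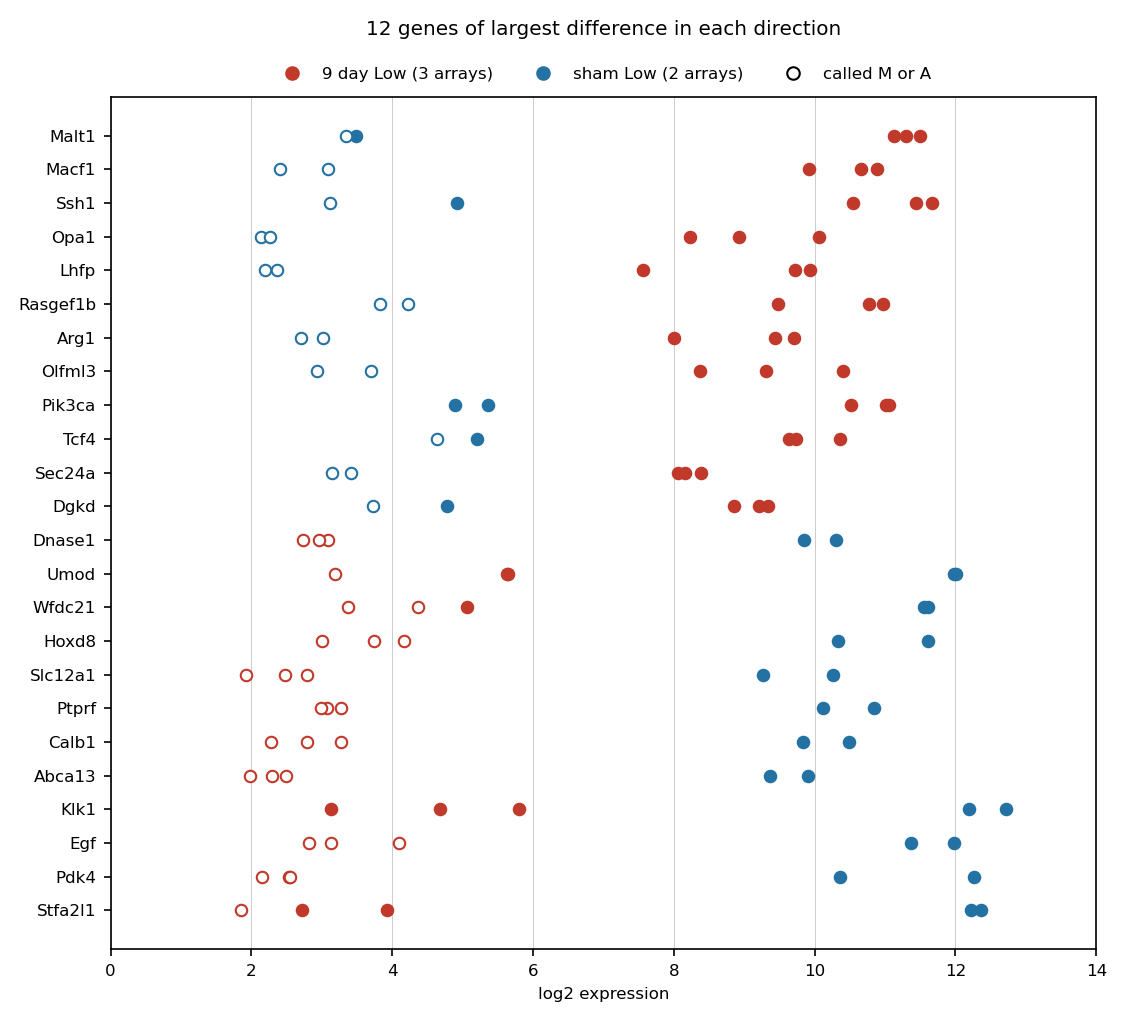
Log2 expression (horizontal axis) of the 12 called genes of largest difference in each direction (vertical axis); each point is an array, red for 9 day Low and blue for the arrays labelled sham Low, open where the call was M or A. The 24 genes were chosen among those whose groups do not overlap, so the gap between the 2 groups was a condition of the choice. In 8 of the 12 lower genes no 9 day array was called P.

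Of the other genes among the 12 largest lower differences, Klk1, Dnase1, Hoxd8 and Ptprf are also known from epithelia. Klk1, tissue kallikrein, a kinin-releasing protease of the connecting tubule, read 4.68, 5.80 and 3.13 at 9 days and 12.20 and 12.72 in sham, 243-fold lower. Its probe sets disagree: another differed by -8.91, 1 by -1.38 and 1 by 0.12. Dnase1, a secreted deoxyribonuclease abundant in kidney, read 3.09, 2.74 and 2.96 against 9.85 and 10.30, at least 142-fold lower. Hoxd8, a homeobox transcription factor gene, read 3.01, 3.74 and 4.16 against 10.33 and 11.61, at least 161-fold lower. Ptprf, a receptor tyrosine phosphatase of cell junctions, read 3.27, 3.08 and 3.00 against 10.85 and 10.12, at least 165-fold lower. The sham arrays hold all of these at levels well apart from the 9 day arrays. Pdk4, the kinase that switches off pyruvate dehydrogenase in fasting and under glucocorticoid, read 2.53, 2.16 and 2.55 against 10.36 and 12.26, at least 477-fold lower. Abca13, a large ABC transporter, read 2.49, 2.29 and 1.98 against 9.37 and 9.91, at least 167-fold lower. No cell type was assigned to Pdk4 or Abca13 here. Further called genes with well-known tubule roles, picked after their values were seen, were Cldn8 and Cldn2 (claudins of tight junctions), Cdh1 (E-cadherin), Kl (Klotho) and Slc4a4 (the basolateral bicarbonate transporter). Their differences were -7.02, -4.75, -4.85, -5.62 and -4.69 (log2). Of the 83 lower genes, 56 were called P on no 9 day array. Another probe set passed the filter for 24 of them, and it moved less than 1 log2 downward for 3, Klk1, Heatr6 and Stk32b.

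Neutrophil genes were lower as a list. Of 22 named genes 20 are on the array, and all 20 were below 0, with a median of -4.24. The number called P was 8, 10 and 13 on the 9 day arrays and 20 and 16 on the sham arrays. Of 17 tested members 5 were called lower, and 15 of the 17 were lower without overlap, against 1.01% and 18.5% of all tested genes. Of the 17, 6 passed the filter only through the sham side. The members Stfa2l1, Wfdc21, Hdc, Il1r2 and G0s2 are those called. Stfa2l1, a stefin-family cysteine protease inhibitor gene, was the largest difference of the comparison. It read 1.85, 3.93 and 2.73 at 9 days and 12.22 and 12.37 in sham, 704-fold lower (-9.46 ± 0.85, adjusted p = 0.0462). Wfdc21, a small secreted protein of the WAP family, read 4.37, 3.37 and 5.06 against 11.55 and 11.61, 159-fold lower. Hdc, histidine decarboxylase, which makes histamine, read 4.29, 5.54 and 3.97 against 11.46 and 11.71, 127-fold lower. Il1r2, the decoy receptor for interleukin-1, read 4.50, 5.82 and 5.51 against 11.70 and 11.61, 82.9-fold lower. G0s2, an inhibitor of triglyceride lipase, read 3.31, 5.77 and 3.92 against 11.17 and 11.15, 113-fold lower. At 9 days Wfdc21 and Hdc were called P on 1 of the 3 arrays, Stfa2l1 and G0s2 on 2 and Il1r2 on all 3, so the folds of the first 4 rest in part on arrays where the gene was called absent. In each of the 5, the lowest sham value is more than 5 log2 units above the highest 9 day value.

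The neutrophil alarmin genes stayed at high levels in both groups. S100a8, a calcium-binding subunit of calprotectin, read 11.96, 12.39 and 11.95 at 9 days and 14.41 and 14.26 in sham, and its partner S100a9 read 11.95, 12.57 and 12.54 against 14.33 and 14.55. The groups did not overlap, and the differences of -2.23 and -2.09 were not called (adjusted p = 0.197 and 0.234). Cxcr2, the receptor through which neutrophils follow CXC chemokines, read 4.79, 4.63 and 6.24 against 9.94 and 10.12 and was not called (-4.81, adjusted p = 0.061). The list median over tested genes was -4.90 without sham replicate 1 and -5.29 without sham replicate 2. The summed level of the list (log2) was 13.2, 13.6 and 13.4 at 9 days and 16.2 and 16.2 in sham. For the distal nephron list it was 7.74, 7.94 and 9.14 at 9 days and 13.8 and 14.1 in sham. Every lower gene group described above was thus lower on the same arrays on which the Ly6c signal was lower and the Gapdh ratio higher. The part of each was not tested.

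The lists of the remaining cell types had 1 to 11 tested genes each. The T cell list had 13 genes on the array and 2 tested, the NK cell list 11 and 3, and the B cell list 12 and 5. Gzma, the granzyme A protease of NK and cytotoxic T cells, was the called member of these lists, reading 2.23, 2.64 and 2.05 at 9 days and 6.95 and 7.90 in sham, at least 34.6-fold lower (adjusted p = 0.0472). Ighm, the immunoglobulin M heavy chain, ran the other way at 10.94, 10.73 and 10.09 against 6.24 and 8.88 without being called. Among dendritic cell genes 11 of 17 on the array were tested and 0 called, and the number called P was 7, 6 and 10 at 9 days and 13 and 11 in sham. Btla, an inhibitory receptor, read 2.80, 2.19 and 1.89 against 5.90 and 7.26, and the growth factor receptor Flt3 read 3.52, 3.40 and 2.85 against 6.02 and 6.76, with adjusted p of 0.076 and 0.115. Siglecf, of eosinophils, was the 1 tested gene of its list, at 1.64, 2.11 and 1.60 against 4.66 and 5.48. Of 17 endothelial genes on the array 2, 5 and 5 were called P at 9 days and 12 and 6 in sham. Of these 17, 7 were tested, and the caveolar coat gene Cav1 was called, at 2.43, 2.17 and 2.46 against 6.85 and 7.96. The endothelial junction gene Pecam1 was called P on no array of either group. Podxl, the sialomucin podocalyxin of podocytes and endothelium, read 3.44, 3.18 and 3.18 against 9.15 and 8.29, at least 43.8-fold lower (adjusted p = 0.0466). In the injured tubule list no gene was called; Lcn2, which neutrophils also make, read 8.27, 3.87 and 5.60 against 12.53 and 12.69 (adjusted p = 0.0977). The fibroblast and mural cell list had 5 of 17 genes tested and the erythrocyte and platelet list 2 of 11, with 0 called in either. Pf4, a platelet chemokine that macrophages also make, read 12.02, 11.61 and 11.81 against 8.67 and 10.18.

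The 13 higher genes fall into no cell type list, and 11 of them are in none of the 34 lists. Arg1, the enzyme that turns arginine into ornithine and urea and is known from repair-phase macrophages, read 9.70, 9.43 and 8.00 at 9 days and 3.02 and 2.71 in sham, where it was called absent on both arrays. It was at least 72.5-fold higher (6.18 ± 0.81, adjusted p = 0.0472). Malt1, the paracaspase that links antigen and C-type lectin receptors to NF-kB, read 11.49, 11.29 and 11.13 against 3.48 and 3.35, 237-fold higher. Macf1, which crosslinks microtubules and actin, read 10.66, 10.89 and 9.92 against 2.41 and 3.08, at least 214-fold higher. Ssh1, a phosphatase that activates cofilin, read 11.67, 11.43 and 10.54 against 4.92 and 3.12, 147-fold higher. Malt1 and Ssh1 were called P on 1 of the 2 sham arrays. In all 3 the 9 day values lie close together and far above the sham values. Opa1, a GTPase that fuses mitochondrial inner membranes, read 8.24, 10.07 and 8.92 against 2.14 and 2.26, at least 117-fold higher. Lhfp, a tetraspan membrane protein, read 9.72, 9.93 and 7.57 against 2.20 and 2.37, at least 111-fold higher.

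Rasgef1b, an exchange factor for Ras-family GTPases, read 10.97, 9.48 and 10.77 at 9 days and 4.22 and 3.83 in sham, at least 83.5-fold higher. Olfml3, a secreted olfactomedin-domain protein, read 8.37, 9.31 and 10.40 against 2.94 and 3.70, at least 66-fold higher. Pik3ca, the catalytic p110-alpha subunit of phosphoinositide 3-kinase, read 11.05, 10.52 and 11.02 against 4.89 and 5.36, 53.4-fold higher. Tcf4, an E protein transcription factor, read 10.36, 9.74 and 9.64 against 5.20 and 4.63, 31.8-fold higher. Each of these genes was called P on all 3 arrays at 9 days, and Tcf4 on 1 sham array and Pik3ca on both. Sec24a, a cargo adaptor of COPII vesicles, read 8.38, 8.06 and 8.16 against 3.15 and 3.42, at least 30.2-fold higher. Dgkd, a diacylglycerol kinase, read 8.86, 9.21 and 9.33 against 4.77 and 3.73, 29.5-fold higher, with 1 of the 2 sham arrays called P. St6gal1, the sialyltransferase that caps N-glycans, is the thirteenth, at 4.80 log2 higher.

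Probe sets of the same gene did not all show these rises. Another probe set passed the filter for 6 of the 13 higher genes, and 3 of them ran slightly the other way. A second Malt1 probe set read 3.44, 2.98 and 3.12 at 9 days and 3.47 and 3.43 in sham. A second Macf1 probe set differed by -0.13 and a second Sec24a probe set by -1.01. For Ssh1 and Opa1 the other probe sets did not pass the filter and differed by 0.41 to 1.14. The second tested Pik3ca probe set went with the first, at 4.49 higher, and the other 4 tested Tcf4 probe sets were 1.89 to 4.80 higher. Arg1, Lhfp, Rasgef1b and Olfml3 have a single probe set of their own. In a model of all 21 arrays with a numbered replicate and gate, 9 of the 12 largest higher genes and 4 of the 12 largest lower genes were also called. Arg1 was not among them (adjusted p = 0.0801), nor were Ssh1 and Tcf4 (0.243 and 0.113).

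Tissue macrophage genes were mostly higher at 9 days, though none was called. Of 32 named genes 30 are on the array, 29 of them were above 0, and their median was 1.37, with 0.01 for every gene on the array. Among the 27 tested, 20 had all 9 day values above both sham values, a share read against the 13.5% of all tested genes. Of the 27, 5 passed the filter only through the 9 day side, as did 2143 of the 8179 tested genes. By limma with adjustment 0 of the 27 were called and 9 had an unadjusted p under 0.05. Stab1, the scavenger and clearance receptor stabilin-1, read 11.13, 10.55 and 10.23 at 9 days and 6.71 and 5.91 in sham (4.33 ± 0.71, adjusted p = 0.0609). Ms4a7, a tetraspan protein of mature macrophages, read 12.80, 12.69 and 12.60 against 9.64 and 9.33 (3.21 ± 0.64, adjusted p = 0.0942). Siglec1, the sialic acid receptor CD169, read 4.96, 8.24 and 7.56 and was absent in sham, at 2.65 and 3.23. Values of the lineage receptor gene Csf1r were 13.41, 13.59 and 13.81 against 12.07 and 12.49, and those of Cx3cr1 were 9.74, 10.36 and 10.94 against 7.68 and 9.39. The complement gene C1qa read 12.14, 12.42 and 12.63 against 10.61 and 11.35. In all of these the groups did not overlap. The exception in direction was Slc40a1, the iron exporter ferroportin, at 5.53, 5.86 and 6.98 against 9.03 and 8.83 (-2.80, adjusted p = 0.17). The list median over tested genes was 1.63 without sham replicate 1 and 1.38 without sham replicate 2. The summed level of the list (log2) was 16.5, 16.4 and 16.7 at 9 days and 15.2 and 15.5 in sham. It was higher on the same arrays on which the Ly6c signal and the neutrophil and tubule levels were lower and the Gapdh ratio higher, and the part of each was not tested.

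**Figure D3:**
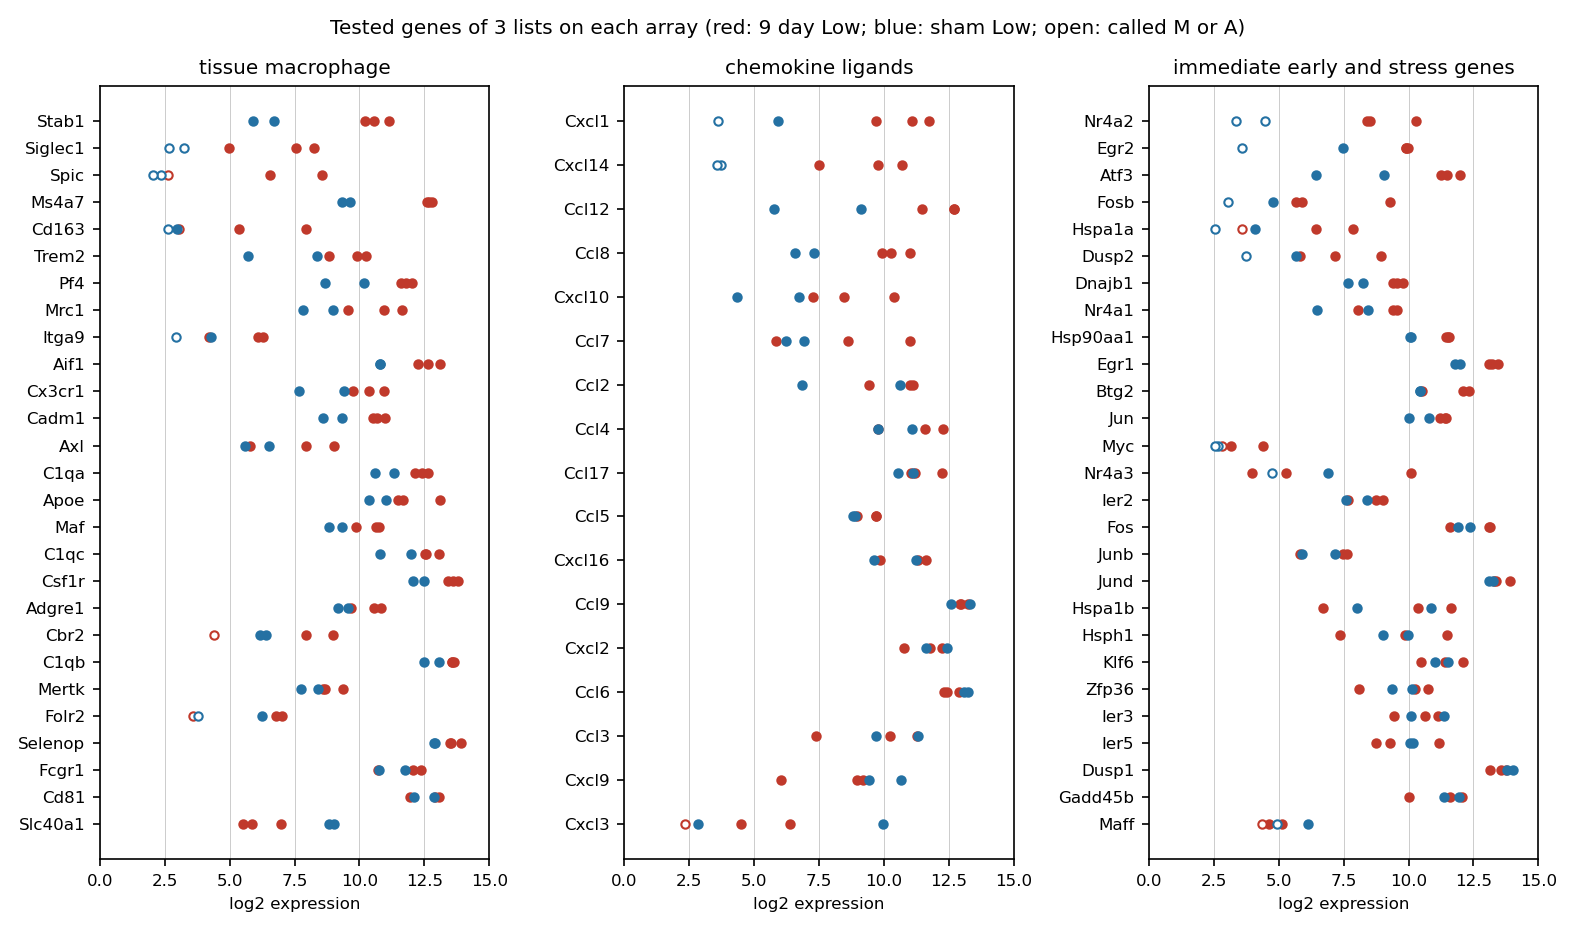
Log2 expression (horizontal axis) of the tested genes of the tissue macrophage, chemokine ligand and immediate early lists (vertical axis); each point is an array, red for 9 day Low and blue for the arrays labelled sham Low, open where the call was M or A. In the tissue macrophage list 20 of 27 genes have all red points to the right of the blue ones, and Slc40a1 has them to the left.

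Monocyte genes split. In the classical list 14 of 19 genes on the array were below 0 and 7 of the 18 tested were lower with no overlap (18.5% over all tested genes), yet 0 were called and the median was -0.49. Ifitm6, an interferon-induced transmembrane protein, read 6.95, 8.73 and 7.90 at 9 days and 12.56 and 11.60 in sham (adjusted p = 0.0932). Chil3, the chitinase-like lectin Ym1 of monocytes and alternatively activated macrophages, read 6.05, 6.06 and 8.13 against 12.84 and 10.22. Hp, haptoglobin, read 6.84, 9.45 and 9.01 against 13.31 and 12.06. Ccr2, the monocyte chemokine receptor gene, did not separate the groups, at 12.43, 11.82 and 11.99 against 12.15 and 11.51. For the nonclassical list the median was -0.46 over all 21 genes, and 1 was called lower. That gene, Pglyrp1, a peptidoglycan-binding protein that neutrophils also store, read 6.37, 7.54 and 7.68 against 12.26 and 12.46, 35.8-fold lower (adjusted p = 0.0477). The transcription factor gene Klf4 ran upward, at 9.97, 9.95 and 11.31 against 7.66 and 6.64, and the lipid chaperone gene Fabp4 downward, at 5.32, 4.94 and 5.05 against 9.13 and 7.93. Neither was called. The medians of both lists depend on single arrays. The classical median over tested genes was -0.01 without sham replicate 1 and -1.38 without sham replicate 2, and the nonclassical one 0.38 and -1.01.

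No chemokine ligand was called (0 of 17 tested by limma with adjustment, with 5 at an unadjusted p under 0.05), and those 5 were all higher. Cxcl1, a neutrophil attractant, read 11.73, 9.71 and 11.09 at 9 days and 5.91 and 3.59 in sham (6.09 ± 1.05, adjusted p = 0.0668). Cxcl14 read 7.49, 10.70 and 9.77 and was absent in sham, at 3.72 and 3.57 (adjusted p = 0.0879). The monocyte attractants Ccl8 and Ccl12 read 9.91, 11.01 and 10.26 against 7.29 and 6.55, and 12.70, 11.45 and 12.71 against 9.13 and 5.77. All 4 are separated between groups. Over all 21 ligands on the array the median was 0.51. Among 8 tested chemokine receptors 0 were called. Cxcr3 read 6.49, 6.04 and 6.49 against 3.29 and 3.50, and Ccr7, which guides dendritic cells to lymph nodes, read 3.04, 3.49 and 2.78 against 5.22 and 4.69.

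In the pro-inflammatory list Il1r2 alone of 23 tested genes was called, and it was lower. Tnfsf9, the costimulatory ligand 4-1BBL, read 9.55, 7.36 and 10.28 against 6.90 and 3.34. Ccrl2, a chemerin-binding receptor, read 10.95, 11.32 and 11.36 against 9.18 and 8.92. The alternative activation list had 1 called gene, Arg1, and a median of -0.26 over 26 genes, with 16 below 0. Igf1, the growth factor that macrophages supply in repair, read 9.94, 10.80 and 9.40 against 6.73 and 7.79 (2.79 ± 0.79, adjusted p = 0.188), while Cd209a, a lectin of monocyte-derived dendritic cells, differed by -3.73 and was not called either. Of 24 tested matrix genes 0 were called. Mmp12, macrophage elastase, read 9.81, 9.15 and 9.63 against 4.65 and 7.02, and the neutrophil gelatinase gene Mmp9 read 5.18, 3.43 and 4.45 against 9.65 and 7.56. The inhibitor gene Timp3 read 2.70, 2.86 and 5.13 against 7.55 and 9.76. Among 20 tested efferocytosis and scavenger receptor genes Cd300lf, an inhibitory receptor that binds phosphatidylserine, was called lower, at 4.83, 4.90 and 4.84 against 9.13 and 10.13 (adjusted p = 0.0477).

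**Figure D4:**
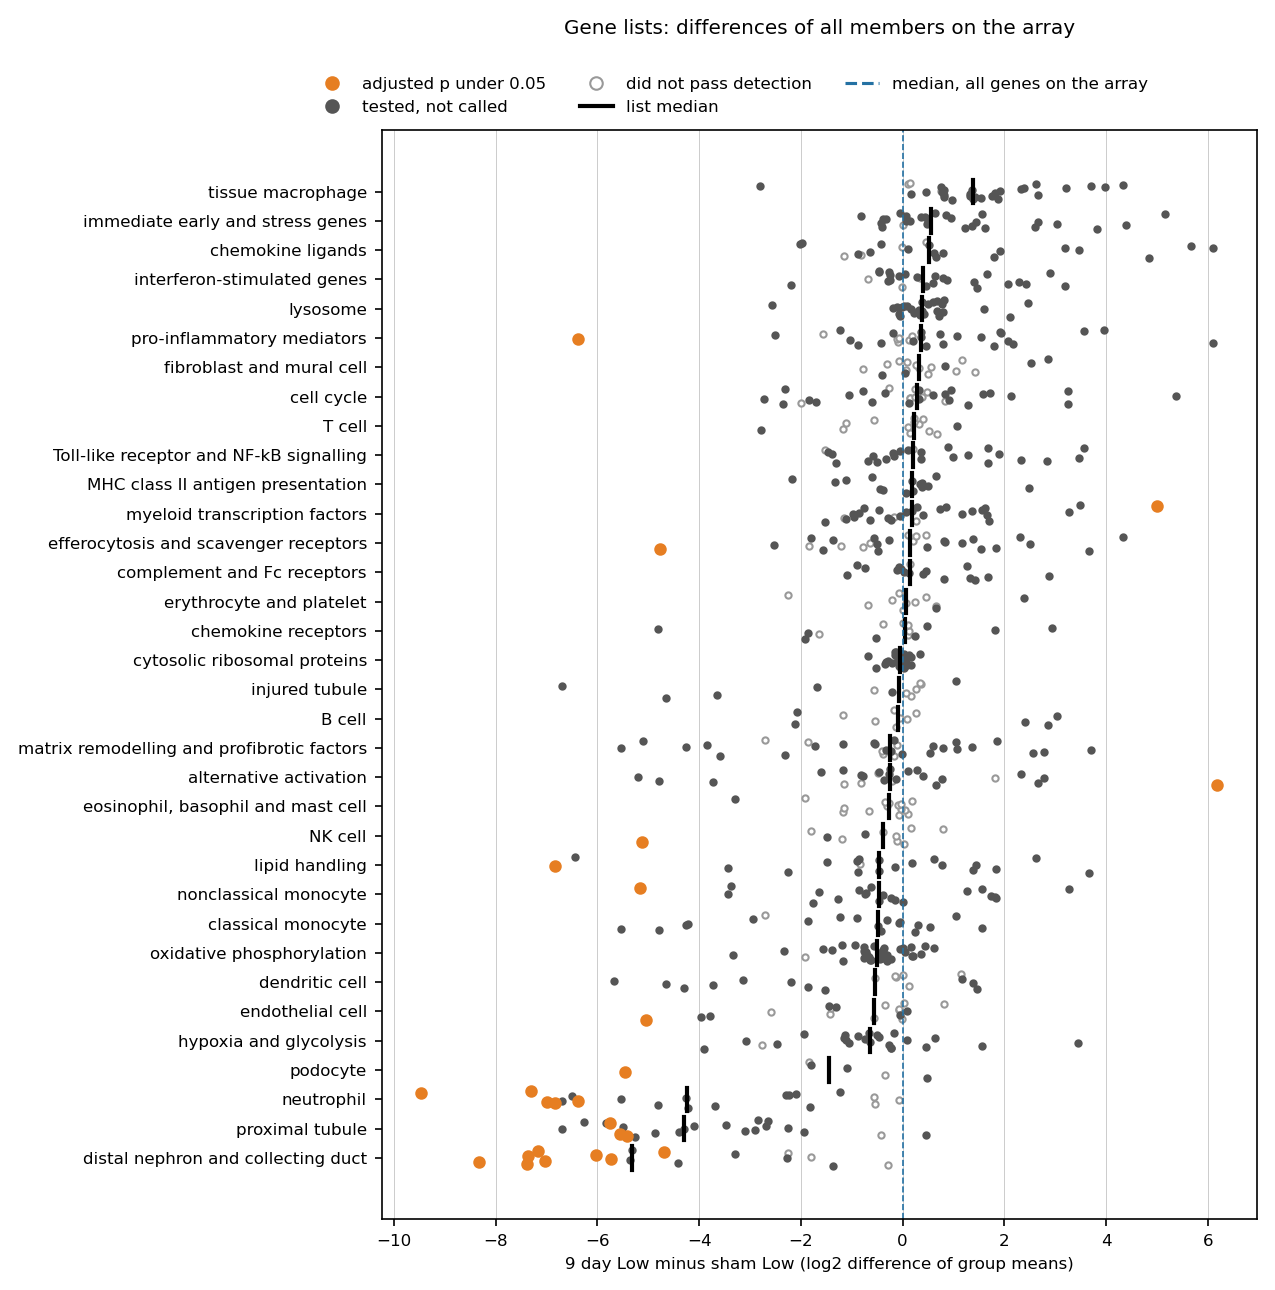
Difference of group means, 9 day Low minus sham Low (log2, horizontal axis), for every gene on the array of each of the 34 lists (vertical axis); orange points have an adjusted p under 0.05, grey points were tested and not called, open points did not pass the detection filter, black bars are list medians and the dashed line is the median over all genes on the array. The neutrophil, proximal tubule and distal nephron lists lie farthest to the left, with medians of -4.24, -4.29 and -5.31, and the tissue macrophage list farthest to the right at 1.37.

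The lists of antigen presentation, translation and oxidative metabolism held no called gene. The MHC class II list had a median of 0.19 over 15 genes with 0 called. Ciita, the master coactivator of these genes, read 9.13, 9.46 and 9.83 at 9 days and 7.38 and 6.59 in sham (adjusted p = 0.181). The members next in p, H2-Oa, H2-Ob and H2-DMb2, went the other way, by -1.11, -2.18 and -1.33. Of the 15 genes 9 lay above 0 and 6 below. Cytosolic ribosomal protein genes had a median of -0.06 and a range of -0.68 to 0.33 over 29 genes. Oxidative phosphorylation genes had a median of -0.51 over 36 genes on the array, and 16 of 35 tested were lower without overlap (18.5% over all tested genes), but 0 were called. The hypoxia and glycolysis list had a median of -0.65 with 0 of 23 called. Adm, the vasodilator peptide adrenomedullin, read 4.80, 2.97 and 2.75 against 7.46 and 7.36, and the glucose transporter gene Slc2a1 read 9.63, 11.28 and 10.68 against 12.80 and 12.14. Hexokinase gene Hk2 ran the other way, at 6.89, 8.97 and 7.78 against 3.10 and 5.77. In the lipid list G0s2, given above, was the called gene of 19 tested. Of 26 tested lysosome genes 0 were called, with a median of 0.38.

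Of 28 immediate early and stress genes 22 lay above 0, with a median of 0.56. Of 27 tested, 12 were higher without overlap (13.5% over all tested genes), and 8 passed the filter only through the 9 day side. By limma with adjustment 0 were called, and 3 had an unadjusted p under 0.05. Nr4a2, an orphan nuclear receptor gene, read 8.51, 10.27 and 8.39 at 9 days and was absent in sham, at 3.34 and 4.47 (5.16 ± 0.90, adjusted p = 0.0702). Atf3 read 11.48, 11.24 and 11.99 against 9.07 and 6.44, and Egr2 read 9.89, 9.91 and 9.97 against 7.47 and 3.59. In both genes the sham arrays lie farther from each other than the 9 day arrays do. Interferon-stimulated genes had a median of 0.40 over 26 genes, with 0 of 23 called. Stat2, a subunit of the interferon-activated transcription factor, read 6.24, 7.86 and 7.17 against 4.24 and 4.15. Among Toll-like receptor and NF-kB genes 0 of 23 were called, and Nfkbie, an NF-kB inhibitor that NF-kB induces, read 9.20, 10.60 and 10.07 against 6.31 and 6.69 (adjusted p = 0.108). In the complement and Fc receptor list 0 of 16 were called, and the anaphylatoxin receptor gene C3ar1 read 10.99, 11.78 and 12.23 against 9.52 and 8.07. Of 23 tested cell cycle genes 0 were called. The helicase subunit gene Mcm2 read 7.98, 5.89 and 8.82 against 2.46 and 1.94 (adjusted p = 0.0885), while the mitotic topoisomerase gene Top2a read 2.71, 4.93 and 4.54 against 6.13 and 6.62. Of the myeloid transcription factors, Tcf4 was the 1 called of 26 tested. Across all tested genes 14.5% had an unadjusted p under 0.05. By the same limma test the lists with 0 called genes had 8 such genes of 24 (matrix), 6 of 11 (dendritic cell), 5 of 18 (classical monocyte), 5 of 23 (interferon-stimulated), 4 of 8 (chemokine receptors), 3 of 23 (hypoxia and glycolysis), 3 of 5 (B cell), 2 of 23 (Toll-like receptor and NF-kB), 2 of 23 (cell cycle) and 2 of 6 (injured tubule). There was 1 in each of the MHC class II, lysosome, complement, T cell, eosinophil, and erythrocyte and platelet lists. The ribosomal, oxidative phosphorylation and fibroblast lists had 0.

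The leading genes were followed on the 19 other sorted arrays. Umod was called P on 14 of them, among them both sham Intermediate arrays at 12.81 and 12.80 and all 3 4 h High arrays at 10.79 to 11.39. On the 9 day Intermediate arrays Umod was absent, at 3.45, 2.94 and 2.36, of which replicate 9, at 2.94, is the 1 array with more than 5% of probe sets called P. Stfa2l1 was called P on 17 of the 19, and read 7.34, 11.90 and 8.36 on the 9 day Intermediate arrays. Arg1 was called P on 7, at 10.40 to 10.87 on the 24 h Intermediate arrays, 11.19 on 9 day Intermediate replicate 9, 7.68 on 4 h Intermediate replicate 32, and 8.01 and 7.47 on sham 58 High replicates 2 and 3. Malt1 was highest on sham 58 High replicate 1, at 10.26, and reached 9.52 and 10.11 on 2 of the 4 h High arrays. Stab1 reached 11.11 on 9 day Intermediate replicate 9 and 10.26 on sham 58 High replicate 3. Each of the 3 genes was thus also high on an array of a sham group. The high levels of Arg1, Malt1 and Stab1 were therefore not restricted to the 9 day Low arrays. Opa1 was called P on 4 of the other arrays, the 3 labelled sham 58 High, at 6.04 to 9.46, and 9 day Intermediate replicate 9, at 2.80.

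Whether the 9 day effect differed between the Low and the Intermediate gate was tested as a difference of differences in a model of 21 arrays. Of the 3 arrays labelled 9 day Intermediate, 2 lack the Ly6c signal and have under 5% of probe sets called P, as given above, so this compares the arrays as labelled. The 3' to 5' ratio of actin was 51.8 and 22.1 on those 2 arrays and 2.00 on replicate 9. On sham Intermediate replicates 1 and 2 it was 183 and 2.78, with Gapdh ratios of 431 and 3.93. The part of RNA quality was not tested here either. By limma with adjustment 2 of 8179 genes (0.0245%) were called, and 659 had an unadjusted p under 0.05. For Opa1 the effect was 6.87 in Low and -0.05 in Intermediate, a difference of 6.92 ± 1.06 (adjusted p = 0.0383). For Hdac2, a histone deacetylase gene, the effect was 2.41 in Low and -6.79 in Intermediate, a difference of 9.21 ± 1.49 (adjusted p = 0.0383). Hdac2 read 7.10, 2.43 and 6.42 on the 9 day Low arrays and 3.03 and 2.78 on the sham Low arrays, while the sham Intermediate arrays read 10.03 and 10.04. Without the arrays under 5%, which leaves 9 day Intermediate replicate 9 alone in its group, the difference was 6.43 for Opa1 (adjusted p = 0.0443) and 9.58 for Hdac2 (adjusted p = 0.0736). That model called 11 genes, 9 of them lower. Lhfp was next in the model of 21 arrays, at 6.95 (adjusted p = 0.0505). For Umod, Stfa2l1 and Arg1 the difference between the gates was 2.72, -6.07 and 2.33 and was not called (adjusted p = 0.826, 0.209 and 0.841). The count of called genes ran from 0 to 41 when 1 array of the 4 groups was left out.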

How the data were processed

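The members and the 34 gene lists were chosen with earlier results of these data known. Expression was measured on Affymetrix arrays of 45101 probe sets. The deposited log2 values were made by the authors with RMA, per the submitters' processing notes, which also name Affymetrix Expression Console. A second table of the authors gives linear signal intensities, whose trimmed means all lie near 500, with a detection call (P present, M marginal, A absent) for each probe set. Probe-to-gene names came from the platform annotation, by which 34958 probe sets name 1 gene, 932 several and 9211 none. The probe set of highest mean stood for a gene. Genes called P on at least 2 arrays of either group were tested with limma 3.58.1 in R 4.3.3 (lmFit, eBayes, two-sided, Benjamini-Hochberg over 8179 genes, called at an adjusted p under 0.05). The number of arrays limits the precision. The interaction used 21 arrays. The steps were tested on simulated data.

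Genes named were the 12 called genes of largest difference in each direction without overlap, up to 4 members of smallest p from each list, and Itgam, Adgre1, Cx3cr1, Ccr2, Csf1r and the Ly6c probe set. A few others were picked after their values were seen, to complete a list or a role: Gpx3, Kap, Aqp2, C1qa, S100a8, S100a9, Pecam1, Pf4, Slc12a3, Pvalb, Tmem52b, G6pc, St6gal1, Cldn8, Cldn2, Cdh1, Kl, Slc4a4, Heatr6, Stk32b, Hdac2 and the other probe sets. Alternatives changed the arrays modelled, the values, normalization, filter, probe set summary, variance model and covariate. The 9 day and sham arrays share no replicate number, so the animal entered only as a random replicate block in the model of 21 arrays.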

Additional observations from a re-analysis of the deposited data

Results flagged for a closer look

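For 2 genes the 9 day effect differed between the arrays labelled Low and those labelled Intermediate by a test of that difference (limma contrast over 21 arrays, Benjamini-Hochberg adjustment over 8179 genes). For Opa1 the effect in Low minus that in Intermediate was 6.92 (adjusted p = 0.0383). For Hdac2 it was 9.21 (adjusted p = 0.0383), and the 2 sham Intermediate arrays, at 10.03 and 10.04, were the highest of the sorted arrays. Of the 3 arrays labelled 9 day Intermediate, 2 read 5.27 and 5.01 at the Ly6c probe set, called absent, with 3.29% and 4.67% of all probe sets called P. The 3' to 5' ratio of Gapdh was 431 on sham Intermediate replicate 1 and 3.93 on replicate 2. Without the arrays under 5% the difference was 6.43 for Opa1 (adjusted p = 0.0443) and 9.58 for Hdac2 (adjusted p = 0.0736). Opa1 was absent on both sham Intermediate arrays, and its other 2 probe sets differed by 0.42 and 0.41 in Low.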

How the results depend on the processing

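The count of 96 called genes (13 higher, 83 lower) ranged from 0 to 246 over the alternatives, and was 110 with array weights. No gene was called with log2 of the deposited signal plus 1, after quantile normalization, after centring, with each probe set tested on its own, or with the share of present probe sets as a covariate. In those the smallest adjusted p was 0.0677, 0.0523, 0.0519, 0.0553 and 0.116, and 1083, 1171, 1186, 1908 and 1176 had an unadjusted p under 0.05. Leaving out 1 array gave 0 in each case. More genes were called in the model of 21 arrays (129, of which 43 higher and 86 lower, 38 of the 96 among them), with arrays of at least 5% present probe sets (246, 73 and 173), without a detection filter (154, 25 and 129), with presence on every array of a group (169, 28 and 141) and with the mean of probe sets (138, 16 and 122). A variance trend with robust prior gave 27 (7 and 20). The model with the animal as a random replicate block gave 130 (43 and 87), at a correlation of -0.02. No further paired analysis was possible because 9 day and sham arrays share no replicate number.

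The 2 interaction calls, both higher, became 11 with arrays of at least 5% present (9 of them lower) and 0 with the signal values or after centring. Without 1 array they ran from 0 to 41, with 0 to 32 higher and 0 to 13 lower. They were 22 without sham Low replicate 1, 41 without 9 day Intermediate replicate 9, 21 without sham Intermediate replicate 1 and 7 without replicate 2, and 0 without sham Low replicate 2 or 9 day Intermediate replicates 8 or 13. None of the 36 called genes among the 143 named changed direction under the alternatives run, but many of these could not turn a sign. The models of 21 arrays, the filters and the variance trend leave the difference as it was. Leaving out 1 array cannot reverse a gene whose groups do not overlap. Testing each probe set on its own followed the probe set kept here. Other tested probe sets ran the opposite way for 3 of the 13 higher and 2 of the 83 lower called genes. Of the 107 named genes not called, 7 changed direction. Itgam, at -0.07, turned to 0.13, 0.38 and 0.070 with signal values, quantile normalization and centring, and ran from -1.24 to 1.11 without 1 array. Ccr2 turned to -0.40 with the mean of probe sets and ran from -0.067 to 0.57 without 1 array. Bpgm turned to -0.014 with array weights and ran from -1.11 to 1.86. Acta2 turned to 0.0022 with the mean of probe sets and ran from -1.01 to 0.19. Dnajb1 turned to -0.30 with that mean. Cdkn1c ran from -1.01 to 1.96 and Rpl14 from -1.04 to 0.31 without 1 array. The cause was not tested in any of these.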

Other observations

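Immunoglobulin genes did not run together. Igk, an immunoglobulin kappa locus probe set, and Igkv8-30 were called lower, by -7.10 and -5.76 (log2), while Ighm differed by 3.03 and Cd79b, a signalling subunit of the B cell receptor, by 2.40 without being called. Cd79a, the partner of Cd79b, differed by -2.11. Lrg1, a leucine-rich glycoprotein of neutrophils, and Cd177, a neutrophil surface protein, were called lower by -6.49 and -7.13, and neither is in the neutrophil list. These genes were picked after their values were seen.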
